A study of Mus musculus with 14 samples.

Results

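The regions described here are FLAG ChIP-seq regions that lie beside H3K4me3 without touching it. Peaks of the 6 FLAG lists on the 19 autosomes were merged where they shared at least 1 bp, which gave 116516 regions. Of these, 35459 had a peak in all 3 K27M-Tag FLAG lists, and 19833 of the 35459 overlapped an H3K4me3 peak of at least 1 of the 6 H3K4me3 lists. The flanking regions are the 6113 that overlapped none but lay at most 5000 bp from the nearest one, 17.2% of the 35459 and 5.25% of all FLAG regions. The remaining 9513 lay farther away and are called far. The flanking regions were chosen by the peaks of the K27M-Tag FLAG lists and of all H3K4me3 lists, so their presence in K27M-Tag and their distance from H3K4me3 are a description and are not tested. WT-Tag FLAG peaks entered the choice through the extent of the merged regions.

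The lists came from 6 neurosphere cultures of neural stem cells, taken from mouse embryonic hindbrain at stage e15.5. Nestin-cre, which acts in neural precursors, had removed a stop cassette in front of 1 tagged copy of H3f3a in both groups, and the other copy was untagged wild type. The 3 K27M-Tag cultures (Nestin-cre; H3f3aLSL-K27M-Tag/+) expressed tagged H3.3 with the K27M substitution and were all female. The 3 WT-Tag cultures (Nestin-cre; H3f3aLSL-WT-Tag/+) expressed the tagged wild-type histone, with replicates 1 and 2 female and replicate 3 male. Each culture gave 1 FLAG and 1 H3K4me3 library. The labels number the cultures but do not say whether they came from separate embryos, so p-values cover only the spread between these cultures. A culture without a tag was not used here, so the signal that FLAG antibody gives at these places without a tag is unknown.

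H3.3 is the histone H3 variant that is placed in chromatin outside DNA replication, at active promoters, gene bodies, enhancers and some repeats. K27M, a substitution found in midline gliomas of childhood, blocks the methyltransferase complex PRC2 and lowers H3K27me3 in cells that carry it. H3K4me3 marks the nucleosomes around active and poised promoters, and its flanks carry H3K4me1 at many promoters and enhancers. No annotation of the build used, mm9, was at hand, so regions are named by mm9 position and genes are not given.

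The autosomal FLAG lists held 57061 to 87258 peaks in K27M-Tag and 32466 to 46880 in WT-Tag, and the H3K4me3 lists 34309 to 37627 and 30884 to 31483. The background coverage recovered from the FLAG peaks was 3.16 to 3.60 fragments per base in K27M-Tag and 3.09 to 3.45 in WT-Tag, so depth was similar and list length was not. A longer list reaches more regions, and the number of lists in which a flanking region has a peak moves with list length. At flanking regions the local background used by the caller exceeded 1.5 times the background coverage at 9.39%, 5.23% and 7.21% of K27M-Tag summits and at 15.6%, 14% and 22.0% of WT-Tag summits. Its part in the differences between genotypes given here was not tested.

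Flanking regions were short and lay close to the mark. Their median length was 855 bp (quartiles 610 and 1243, range 248 to 6766 bp), and together they spanned 6.26 Mb. Their median distance from the nearest H3K4me3 peak was 1410 bp, with quartiles of 488 and 2870 bp and a range from 2 to 5000 bp. Measured to the K27M-Tag summits, the median distances were 1957, 1983 and 1965 bp in replicates 1 to 3. Summits lie inside the regions, so they cannot be nearer than the edges. The regions were split evenly by side, with 3014 at higher and 3099 at lower coordinates than their H3K4me3 neighbour. H3K4me3 was present within 5 kb on both sides of 1114 regions (18.2%). At the limit itself, the members just inside were on chromosome 10 from 84103532 to 84104098, at 5000 bp, and on chromosome 2 from 101567760 to 101569248, at 4999 bp. The first had 264, 215 and 435 covered bases in K27M-Tag, and in WT-Tag a peak in replicate 2 alone, of 235 bp. The second had 1100, 1177 and 1354 covered bases against 514, 866 and 755 for WT-Tag. The regions just outside were on chromosome 12 from 54522632 to 54523645, at 5004 bp, with 535, 434 and 711 covered bases against 477, 621 and 358 for WT-Tag, and on chromosome 4 from 134113799 to 134114844, at 5005 bp, with 696, 233 and 621 in K27M-Tag and no WT-Tag peak.

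The flanking regions were spread over 5035 of the 41556 autosomal H3K4me3 regions (12.1%). Most of these neighbours, 4139, had 1 flanking region, while 737 had 2, 138 had 3, 19 had 4 and 2 had 5. On 305 of the neighbours flanking regions lay on both sides. Per 100 H3K4me3 regions there were 10.6 flanking regions on chromosome 13, the lowest value, and 19.2 on chromosome 11, the highest. The number of flanking regions depended on how peaks were joined and listed. Joining peaks separated by no more than 1000 bp gave 2638, against 2261 with equal list sizes, and 10882 when K27M-Tag FLAG replicate 2, the shortest of the 3 lists, was not required.

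About as many flanking regions were shared with all 3 WT-Tag cultures as were found in none of them. A WT-Tag FLAG peak was absent from all 3 lists at 1838 flanking regions (30.1%, 95% Wilson interval 28.9% to 31.2%), against 32.5% of all 35459 regions. It was present in all 3 lists at 2010 (32.9%), against 33.6%, and in 1 list at 1155 (18.9%) or 2 lists at 1110 (18.2%). Intervals cover counting error only. WT-Tag replicates 1, 2 and 3 had a peak at 44.0%, 56.4% and 53.4% of the flanking regions, at 42.8%, 54.1% and 52.5% of the regions on H3K4me3, and at 42.4%, 58.3% and 55.4% of the far regions. Over all strengths the 3 classes thus differed less from each other in these shares than the WT-Tag cultures did. The share with no WT-Tag peak was 18.6% with equal list sizes and 43.4% when summits had to reach 8 times the background coverage, a limit chosen after seeing the data. It was 43.1% without K27M-Tag FLAG replicate 2.

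The sharing changed with distance. Among regions within 500 bp of H3K4me3, 38.0% of 1553 had no WT-Tag peak and 27.04% had one in all 3 lists. At 500 to 1000 bp the shares were 33.3% and 28.5% of 890, and at 1 to 2 kb 26.6% and 34.8% of 1279. At 4 to 5 kb they were 22.8% and 38.5% of 667, so that the order of the 2 shares turned over within the flank. It turned back beyond 20 kb, where 31.9% of 4368 regions had no WT-Tag peak and 26.7% had one in all 3 lists. Each WT-Tag culture showed the same direction. Replicate 1 had a peak at 38.0% of regions within 500 bp and at 48.7% at 4 to 5 kb, replicate 2 at 48.4% and 62.7%, and replicate 3 at 45.3% and 63.0%. The difference between the nearest and the outermost band in the share with no WT-Tag peak was 15.2 percentage points (95% Wald interval 11.2 to 19.2), a comparison chosen after seeing the data. This interval covers counting error only and treats regions of the same lists as independent. WT-Tag peaks are part of the merged regions, so a region whose WT-Tag peaks reach H3K4me3 counts as on it. Sharing close to the mark is therefore not free of the rule.

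**Figure D1:**
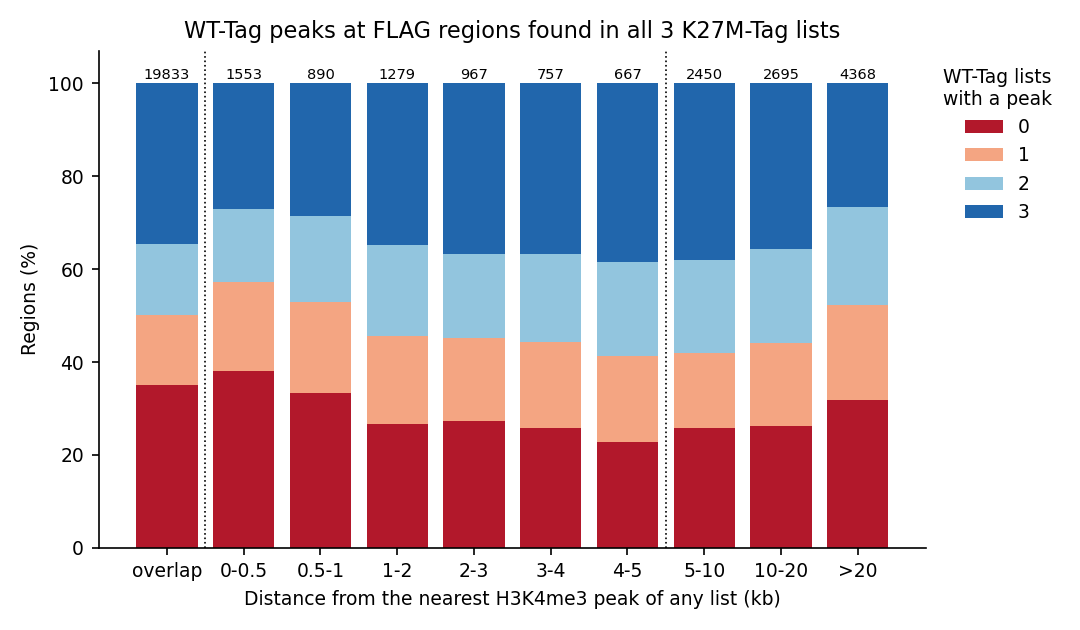
Share of FLAG regions found in all 3 K27M-Tag lists (y axis, percent) by the number of WT-Tag lists with a peak (colours) and by distance from the nearest H3K4me3 peak of any list (x axis, kb), with the number of regions above each bar; the bars between the dotted lines are the flanking regions. The share with no WT-Tag peak was 38.0% in the band nearest H3K4me3 and 22.8% at 4 to 5 kb.

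The sharing was also compared in groups of similar K27M-Tag strength. When all 35459 regions were parted into 3 equal groups by their mean K27M-Tag summit pileup, at 6.42 and 8.13 times background, the share with no WT-Tag peak in the weakest group was 52.1% within 500 bp and 39.2% at 2 to 5 kb. In the middle group it was 29.6% and 20.6%, and in the strongest group 10.9% and 7.13%, with a lower value of 4.00% between them at 500 to 2000 bp. On H3K4me3 the share in the 3 groups was 67.8%, 41.7% and 10.96%, and at far regions 43.9%, 24.96% and 6.605%. Over all strengths the share was 35.1% on H3K4me3, 30.1% at flanking and 28.7% at far regions. In the weakest and middle groups the regions on H3K4me3 thus stood farther apart from both others than over all strengths. Equal list sizes left 12.1 percentage points between 0 to 500 bp and 4 to 5 kb. After joining peaks with gaps of 1000 bp or less, the inner band held 269 regions in place of 1553, and the difference was 1.80 points, from 23.0% of 269 and 21.3% of 527. Counting only H3K4me3 regions of all 6 lists gave 6.95 points. These alternatives were likewise added after seeing the data.

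The sharing also varied with the lists in which the neighbouring H3K4me3 was found. Beside H3K4me3 found in all 6 lists lay 2988 flanking regions, of which 26.1% had no WT-Tag FLAG peak. Beside H3K4me3 found in K27M-Tag lists only lay 1684, of which 34.3% had none, and for the 258 whose neighbour was called in every K27M-Tag culture but in no WT-Tag culture the share was 41.9%. Beside H3K4me3 found in WT-Tag lists only lay 343, of which 23.3% had none. H3K4me3 found in 1 list was the neighbour of 1316 flanking regions (21.5%), and for these the distance rests on a mark called in a single culture. FLAG was present in all 3 K27M-Tag lists on the neighbour itself for 4374 flanking regions (71.6%). Of the 5035 neighbours, 70.4% carried such a FLAG region, against 43.0% of the other H3K4me3 regions. The share with FLAG in all 3 WT-Tag lists was 35.2% of neighbours and 19.2% of the others. In the lists of both genotypes the share of H3K4me3 regions carrying FLAG was thus higher among neighbours. Both shares come from the lists that chose the regions and are given without a test.

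To ask the same of WT-Tag, the rule was applied to regions with a peak in all 3 WT-Tag lists. It gave 3029 flanking regions, of which 66.4% also had a peak in all 3 K27M-Tag lists and 7.03% in none. Of the 7119 regions on H3K4me3, 96.1% were found in all 3 K27M-Tag lists, and of the 4683 far regions 65.3%. The WT-Tag flanking regions were thus close to far regions in this share. Within 500 bp of H3K4me3 the share was 72.8% of 577 regions, and at 4 to 5 kb 65.9% of 390.

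Peaks per Mb of available genome were next counted in each culture against its own H3K4me3 list, which does not use the rule for flanking regions. Among the distance bands outside H3K4me3, all 6 cultures had their highest density in the band next to the mark. Density on H3K4me3 itself was not computed. Within 500 bp, K27M-Tag replicates 1 to 3 had 191, 157 and 212 FLAG peaks per Mb, and the WT-Tag replicates 105, 127 and 121. At 4 to 5 kb the K27M-Tag cultures had 40.9, 29.2 and 46.0 per Mb and the WT-Tag cultures 26.9, 36.8 and 37.3, and here the genotypes overlapped. The ratio of the inner to the outer band was 4.67, 5.39 and 4.61 for K27M-Tag against 3.92, 3.45 and 3.25 for WT-Tag. Its mean was 4.89 ± 0.431 (SD, n = 3) against 3.54 ± 0.342 (SD, n = 3), with no overlap of the cultures (two-sided exact permutation p = 0.1, adjusted 0.133 over 4 tests). The smallest p that 3 cultures against 3 allow is 0.1. This band was chosen after seeing the data. The difference of 1.35 was 1.14 in the highest-scoring 50% of peaks and 1.02 with equal list sizes. It was 1.15 when distances were taken from the H3K4me3 peaks of all 6 lists, and there the cultures overlapped (exact permutation p = 0.2).

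**Figure D2:**
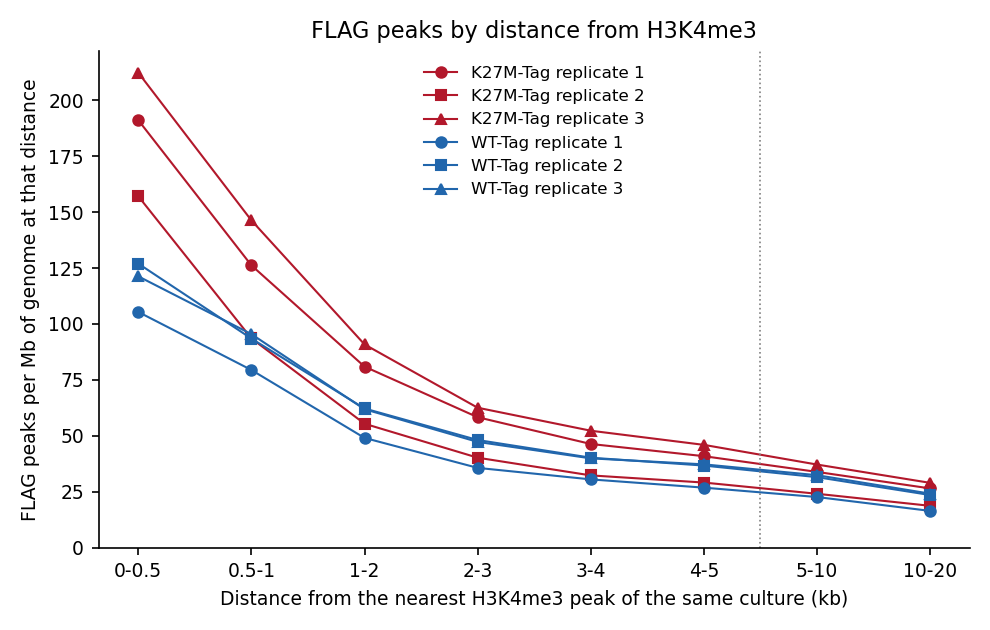
FLAG peaks per Mb of genome (y axis) by distance from the nearest H3K4me3 peak of the same culture (x axis, kb), one line per culture, with K27M-Tag in red and WT-Tag in blue; the dotted line marks 5 kb. Within 500 bp the K27M-Tag cultures lie at 157 to 212 and the WT-Tag cultures at 105 to 127, while at 4 to 5 kb the genotypes overlap.

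Over the whole flank the contrast depended on the lists used. The density within 5 kb over that at 5 to 20 kb was 2.74, 2.84 and 2.81 for K27M-Tag against 2.58, 2.31 and 2.23 for WT-Tag, with means of 2.79 ± 0.0524 (SD, n = 3) and 2.37 ± 0.188 (SD, n = 3) and no overlap (two-sided exact permutation p = 0.1, adjusted 0.133). With equal list sizes the direction turned, with a difference of -0.0270 (exact permutation p = 0.8), and so it did in the highest-scoring 50%, with -0.0385 (p = 0.6, exact). The share of all FLAG peaks of a culture that flanked its own H3K4me3 lay between 26.2% and 27.9% for K27M-Tag and was 31.7%, 30.0% and 28.8% for WT-Tag, with means of 27.04% ± 0.840 (SD, n = 3) and 30.2% ± 1.47 (SD, n = 3) (two-sided exact permutation p = 0.1, adjusted 0.133). Of the peaks outside H3K4me3 alone, the flanking share was higher in K27M-Tag, with 41.3%, 41.3% and 42.6% against 39.5%, 37.0% and 35.0% (exact permutation p = 0.1, a comparison added after seeing the data). With the flank ending at 2000 bp the difference in the share of all peaks was -0.763 points and the cultures overlapped (exact permutation p = 0.7), and with equal list sizes it was -9.64. The direction of the flanking share thus depended on whether peaks on H3K4me3 were counted in the total. Those peaks made up 34.6%, 36.5% and 34.4% of the K27M-Tag lists and 19.7%, 19.0% and 17.6% of the WT-Tag lists.

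The flanking regions had moderate FLAG enrichment. The median of the authors' fold over local background at the summit was 5.03, 4.54 and 5.00 for K27M-Tag, and 4.50, 4.49 and 4.51 for the WT-Tag lists that had a peak there. Their median score percentile within the list was 62.6, 50.3 and 67.8 for K27M-Tag against 62.3, 64.8 and 65.4 for WT-Tag. The K27M-Tag medians on H3K4me3 were higher, at folds of 5.77, 5.25 and 5.89, and those of far regions were 5.05, 4.61 and 5.21. Within a culture, the median fold of peaks flanking its own H3K4me3 differed from that of its far peaks by -0.012, -0.124 and -0.067 in K27M-Tag and by 0 in each WT-Tag culture. Over the 6 cultures the mean difference was -0.034. The WT-Tag medians were tied, so the exact sign-flip permutation test could not give a p below the 0.25 it gave and says nothing about a difference. Among the highest-scoring 50% of peaks the mean difference was -0.087 (two-sided exact sign-flip permutation p = 0.125). By score percentile within the list, flanking minus far was -4.57 on average in K27M-Tag and 1.35 in WT-Tag (exact sign-flip permutation p = 0.375 over all 6), and the difference between genotypes in this measure was not tested.

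Breadth, the bases of a region covered by peaks of a list, was compared at regions with a peak in all 6 FLAG lists. The 2010 flanking regions of this kind had median covered lengths of 868.5, 683 and 926 bp for K27M-Tag against 439, 653.5 and 614 bp for WT-Tag. All 3 K27M-Tag medians were above all 3 WT-Tag medians, and K27M-Tag replicate 2 and WT-Tag replicate 2 were the closest. In the limma fit over all 11907 such regions, 44.0% had an adjusted p under 0.05, 43.5% as wider in K27M-Tag and 0.563% as narrower. Of the flanking regions 525 (26.1%) passed, 500 as wider (24.9%) and 25 as narrower (1.24%). Far regions were close to these, with 30.5% passing, 29.5% as wider and 1.01% as narrower, while 55.4% of regions on H3K4me3 passed. The median log2 ratio of K27M-Tag to WT-Tag was 0.49 at flanking regions, 0.99 at 6841 regions on H3K4me3, 0.63 at 3056 far regions and 0.81 over all 11907. The 3 K27M-Tag values were all above the 3 WT-Tag values at 743 flanking regions (37.0%), against 58.3% of all regions. They were all below at 63 (3.13%), against 1.34%. At far regions these 2 shares were 42.9% and 2.36%.

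**Figure D3:**
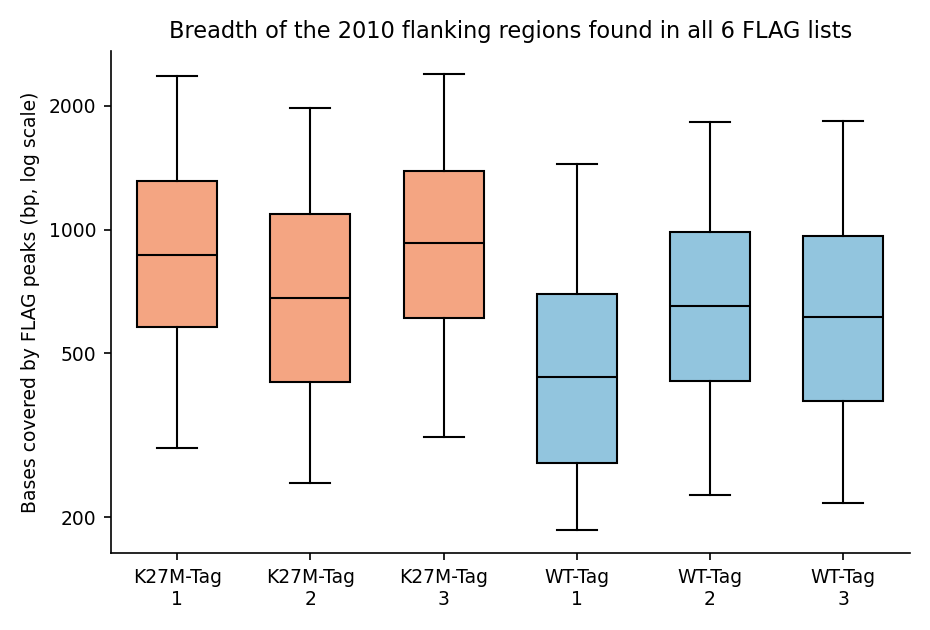
Bases covered by FLAG peaks (y axis, log scale) at the 2010 flanking regions found in all 6 lists, one box per library (median, quartiles, and whiskers at the 5th and 95th percentiles), K27M-Tag in orange and WT-Tag in blue. The medians lie at 868.5, 683 and 926 bp in K27M-Tag and 439, 653.5 and 614 bp in WT-Tag.

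The widening at flanking regions was smaller than the median shift over all 11907 regions in all 6 lists, of which 6841 lay on H3K4me3. When each list was centred on its own median breadth over these regions, the median log2 ratio at flanking regions was -0.43. After centring, 63 flanking regions were called wider (3.13%) and 392 narrower (19.5%). Over all regions the median log2 ratio was -0.10, with 954 wider (8.01%) and 1356 narrower (11.4%). The count of calls also moved with individual libraries. Leaving out K27M-Tag replicate 1 or 3 gave 217 and 220 calls, and leaving out WT-Tag replicate 1 gave 641. These were 9.90%, 10.0% and 24.0% of the flanking regions tested, against 21.4%, 19.9% and 40.6% of all regions. A region is flanking only while its peaks stay clear of H3K4me3, so a flanking region whose peaks are wide enough to reach the mark counts as on H3K4me3, and breadth is not free of the rule.

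Relative to the other classes of the same culture, flanking regions stood lower in K27M-Tag than in WT-Tag. The median log2 breadth of flanking minus far regions was 0.00083, -0.039 and -0.010 for K27M-Tag against 0.15, 0.16 and 0.13 for WT-Tag. That of flanking minus on-H3K4me3 regions was -0.78, -0.92 and -0.74 for K27M-Tag against -0.26, -0.30 and -0.32 for WT-Tag. The cultures of the 2 genotypes did not overlap in either measure, which was added after seeing the data and is given without a test for the reason just named. Along the flank the median log2 ratio stayed between 0.43 and 0.58, with 0.58 within 500 bp and 0.49 at 4 to 5 kb.

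**Figure D4:**
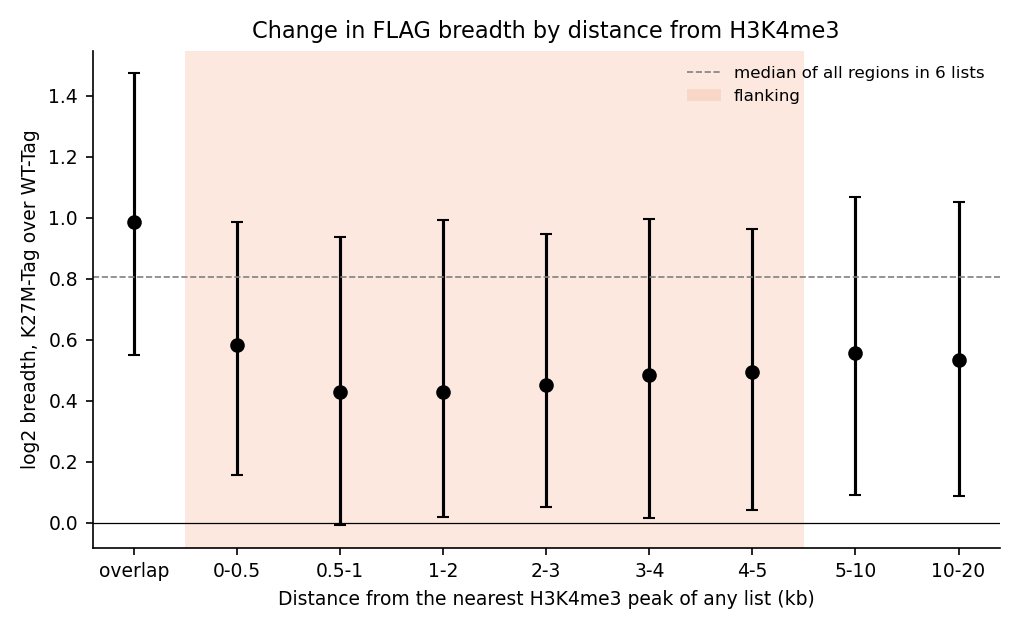
Median and quartiles (points and bars) of the log2 ratio of FLAG breadth, K27M-Tag over WT-Tag (y axis), at regions in all 6 lists, by distance from the nearest H3K4me3 peak of any list (x axis, kb), with the flank shaded and the median of all 11907 regions dashed. Flanking medians lie at 0.43 to 0.58, below 0.99 for regions on H3K4me3.

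The flanking region with the highest K27M-Tag scores was on chromosome 11 from 95225945 to 95228876. The authors' fold there was 16.0, 11.7 and 17.3 for K27M-Tag against 8.41, 7.54 and 7.35 for WT-Tag. It covered 2932, 2298 and 2722 bp against 1807, 2097 and 2207 bp, without overlap, and its log2 ratio of 0.38 ± 0.18 (SE) did not pass the test (limma adjusted p = 0.11). Its nearest H3K4me3 peak, 2463 bp away, was 196 bp long and present in 1 list. Next came chromosome 15 from 84865096 to 84866807, 1019 bp from H3K4me3 found in all 6 lists. Its folds were 11.7, 11.1 and 15.2 against 6.15, 6.31 and 5.31, and its peaks covered 1712, 1540 and 1658 bp against 577, 837 and 543 bp. This difference in breadth passed, at a log2 ratio of 1.35 ± 0.27 (SE) and a limma adjusted p of 0.0056.

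The third, on chromosome 11 from 120081112 to 120083409, covered 1825, 1636 and 1955 bp in K27M-Tag and 1000, 1351 and 788 bp in WT-Tag (log2 ratio 0.82, limma adjusted p = 0.030). Chromosome 2 from 156406101 to 156407955 was also wider, with 1673, 1181 and 1855 bp against 700, 820 and 991 bp (log2 ratio 0.90, limma adjusted p = 0.028). Chromosome 12 from 101528723 to 101530093, 241 bp from the mark, covered 1165, 960 and 1371 bp against 571, 900 and 1088 bp and did not pass (limma adjusted p = 0.23). High scores thus did not go with one outcome in breadth.

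Chromosome 7 from 117922531 to 117925971 had high scores in all 6 lists. Its folds were 10.6, 10.6 and 11.5 for K27M-Tag against 6.64, 9.39 and 8.58 for WT-Tag, while its breadth overlapped, with 2477, 2002 and 2854 bp against 2681, 2824 and 2830 bp (log2 ratio -0.20, limma adjusted p = 0.37). Chromosome 12 from 55798165 to 55801222, 209 bp from H3K4me3 of all 6 lists, was high in all 6 lists too and wider in K27M-Tag, with 2956, 2649 and 2918 bp against 1299, 1821 and 1695 bp (log2 ratio 0.84, limma adjusted p = 0.0094). Chromosome 2 from 165710825 to 165712572 covered 1693, 1724 and 1748 bp against 1245, 1662 and 1376 bp and did not pass (limma adjusted p = 0.28). The flanking regions strongest in both genotypes thus included both called and uncalled breadth.

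The flanking regions with the most covered bases did not separate the genotypes. Chromosome 3 from 87791121 to 87797552 covered 6128, 4942 and 6103 bp in K27M-Tag and 4016, 5612 and 5771 bp in WT-Tag. Chromosome 19 from 44378463 to 44383758 covered 5126, 5170 and 5181 bp against 4114, 5236 and 4974 bp. Chromosome 4 from 57953350 to 57959887 covered 5410, 4380 and 5668 bp against 4447, 5410 and 4239 bp. For chromosome 5 from 141091384 to 141096956, beside an H3K4me3 region of 6845 bp, the values were 4817, 4736 and 4903 bp against 4720, 5226 and 5146 bp. The genotypes overlapped in each of the 4, and log2 ratios were -0.06 to 0.17 (limma adjusted p = 0.41 to 0.65).

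The largest called gain in breadth was on chromosome 3 from 151770583 to 151773229, 168 bp from H3K4me3 of all 6 lists. The region covered 2567, 2003 and 2035 bp in K27M-Tag and 195, 215 and 375 bp in WT-Tag, a log2 ratio of 3.13 ± 0.34 (SE, limma adjusted p = 0.0011). Each WT-Tag culture thus had a short peak where the K27M-Tag cultures each had over 2000 bp. Chromosome 9 from 41745312 to 41747385 covered 1687, 1309 and 1921 bp against 176, 225 and 243 bp (log2 ratio 2.93). Chromosome 6 from 127953280 to 127956084 covered 2756, 1733 and 2559 bp against 176, 314 and 619 bp (log2 ratio 2.83). Both kept the ranges apart. Chromosome 12 from 70596666 to 70598885, 3613 bp from the mark, covered 2097, 1882 and 2059 bp against 266, 334 and 264 bp (log2 ratio 2.81). Chromosome 5 from 118533815 to 118536349 covered 2151, 1799 and 2379 bp against 193, 596 and 242 bp (log2 ratio 2.79). Limma adjusted p of these 4 was 0.00095 to 0.0026. Of the 5 gains, 3 lay beside H3K4me3 found in 1 list. The shortest autosomal FLAG peaks of WT-Tag replicates 1 to 3 were 176, 197 and 193 bp. Several WT-Tag values at the gains lay at or near these lengths, so the log2 ratios depend on the shortest peak a list holds.

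Losses were fewer and smaller. On chromosome 6 from 114575837 to 114577630 the covered length was 814, 381 and 402 bp in K27M-Tag and 1620, 1794 and 1658 bp in WT-Tag, a log2 ratio of -1.76 ± 0.34 (SE, limma adjusted p = 0.0051). In the same 100 kb, chromosome 6 from 114516614 to 114518308 covered 572, 302 and 569 bp against 1211, 1549 and 1619 bp (log2 ratio -1.65, limma adjusted p = 0.0064). Both lay over 4 kb from H3K4me3 found in 1 list. Chromosome 2 from 179769930 to 179772192 covered 484, 224 and 840 bp against 1248, 1458 and 1372 bp (log2 ratio -1.59, limma adjusted p = 0.021). It did not pass without K27M-Tag FLAG replicate 1 (log2 ratio -1.64, limma adjusted p = 0.056) or with joined peaks (-0.41, 0.23). In all 3 the K27M-Tag values lay below the WT-Tag values.

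**Figure D5:**
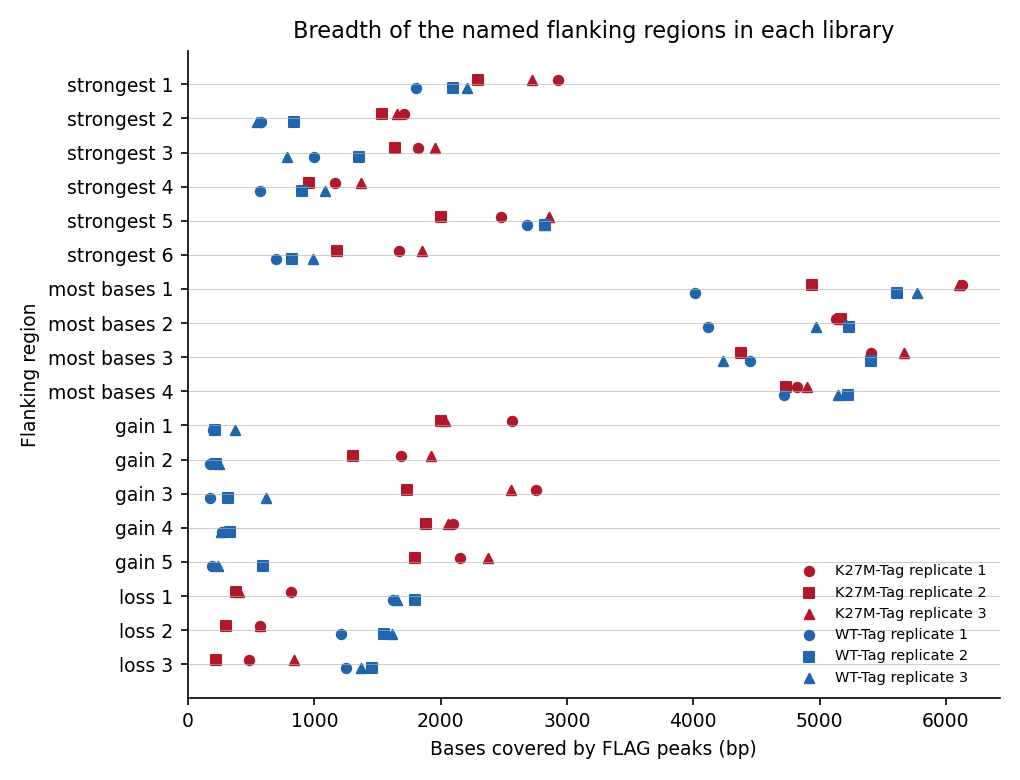
Bases covered by FLAG peaks (x axis, bp) in each library at the named flanking regions (rows), grouped as the 6 strongest in K27M-Tag, the 4 with the most bases, the 5 largest gains and the 3 largest losses in breadth, in the order of the text except that strongest 4, 5 and 6 are the regions on chromosomes 12, 7 and 2; red points are K27M-Tag and blue points WT-Tag cultures. Gains have WT-Tag values of 176 to 619 bp, and the regions with the most bases overlap between genotypes.

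Some H3K4me3 regions were lined by several separate FLAG regions. The H3K4me3 region on chromosome 2 from 30626578 to 30627832, found in all 6 lists, had 5 flanking regions, 3 below and 2 above it. The outermost, from 30621642 to 30622553, covered 821, 620 and 903 bp in K27M-Tag and 567, 672 and 881 bp in WT-Tag. The one from 30624438 to 30625175 covered 461, 215 and 297 bp in K27M-Tag and had a WT-Tag peak in replicate 2 alone, of 275 bp. The farthest 2, at 2595 and 4025 bp, had a peak in all 3 WT-Tag lists, and the 3 nearer ones in 1 or 2 of them. The H3K4me3 region on chromosome 6 from 87943616 to 87944677 also had 5. The 3 below it, at 482, 1270 and 1988 bp, had no WT-Tag peak, and covered 318, 263 and 328 bp, 554, 471 and 581 bp, and 451, 606 and 632 bp in K27M-Tag. The 2 above it had a peak in all 6 lists, and the one from 87948192 to 87949511 covered 701, 723 and 1014 bp in K27M-Tag and 648, 958 and 716 bp in WT-Tag. Sharing thus differed between the sides of a single H3K4me3 region.

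The H3K4me3 region on chromosome 1 from 39818037 to 39819452 had 4 flanking regions. The nearest, from 39816822 to 39817595, covered 774, 538 and 627 bp in K27M-Tag and 176, 204 and 236 bp in WT-Tag, a log2 ratio of 1.65 ± 0.29 (SE, limma adjusted p = 0.0036). On the other side, the region from 39821976 to 39823611 covered 993, 594 and 1259 bp in K27M-Tag and 197 bp in WT-Tag replicate 2 alone. At the other 2 WT-Tag replicate 1 had no peak.

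Breadth of H3K4me3 itself was compared at the neighbours. Of 21864 H3K4me3 regions in all 6 lists, 8.06% had a limma adjusted p under 0.05, 7.51% as wider in K27M-Tag and 0.549% as narrower. The 2460 neighbours among them gave 248 calls (10.1%), 229 wider and 19 narrower, with a median log2 ratio of 0.14, as over all regions. Median breadth at neighbours was 1570.5, 1449 and 1546 bp in K27M-Tag and 1348.5, 1390 and 1362.5 bp in WT-Tag, without overlap. Over all 21864 regions it was 1534, 1455 and 1522 bp against 1326, 1404 and 1368 bp, also without overlap. The 733 neighbours of a flanking region without a WT-Tag peak had a median of 0.19 and 12.1% called, and the 987 neighbours of one in all 3 WT-Tag lists 0.12 and 7.80%. For the 1015 neighbours of one in 1 or 2 WT-Tag lists the values were 0.15 and 11.5%. These sets overlap. Median H3K4me3 breadth in WT-Tag was 1023 to 1109 bp in the set of 733, and 1465 to 1552 bp in the set of 987. Of the 1685 neighbours with FLAG of all 3 K27M-Tag lists on them 12.05% were called, against 9.04% of other H3K4me3 regions with such FLAG. Of the 775 without it 5.81% were called, against 6.81% of the others without. In both sets the share called was higher where FLAG lay on the mark, but the median log2 ratio was lower. It was 0.138 with FLAG and 0.152 without it among neighbours, and 0.124 and 0.147 among the others. Across 1103 flanking regions in all 6 FLAG lists whose neighbour was in all 6 H3K4me3 lists, Spearman's rho between the 2 log2 ratios was 0.151, as a description across regions that share libraries and neighbours.

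The number of H3K4me3 calls at neighbours moved with each K27M-Tag library. Leaving out H3K4me3 replicates 1, 2 and 3 of that group gave 13, 110 and 28 calls, and leaving out WT-Tag replicate 3 gave 119. These were 0.508%, 4.38%, 1.06% and 4.58% of the neighbours tested, against 0.335%, 2.66%, 0.873% and 3.63% of all H3K4me3 regions. With each list centred on its median over the H3K4me3 regions in all 6 lists, 75 neighbours were called wider (3.05%) and 39 narrower (1.59%). Over all these regions the shares were 1.962% and 1.13%.

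H3K4me3 gained most breadth at the neighbour on chromosome 2 from 26219993 to 26222084, at a log2 ratio of 2.72 (limma adjusted p = 0.0051), and its flanking region was in all 6 FLAG lists. That call was lost with equal list sizes (2.01, limma adjusted p = 0.075). On chromosome 10 from 39392293 to 39393477, H3K4me3 covered 609, 783 and 1035 bp in K27M-Tag and 253, 191 and 193 bp in WT-Tag, a log2 ratio of 1.91 ± 0.24 (SE, limma adjusted p = 0.012). It did not pass without K27M-Tag replicate 3 (1.42, limma adjusted p = 0.060). Chromosome 4 from 8738261 to 8739700 covered 1014, 921 and 1390 bp against 398, 427 and 197 bp (log2 ratio 1.76, limma adjusted p = 0.027). That call was lost without any 1 of the 3 K27M-Tag replicates, at limma adjusted p = 0.10, 0.062 and 0.097.

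Among the narrower neighbours, chromosome 19 from 29999210 to 30001401 covered 688, 1138 and 902 bp in K27M-Tag and 2146, 2185 and 2117 bp in WT-Tag, a log2 ratio of -1.27 ± 0.17 (SE, limma adjusted p = 0.013). Its flanking region, 351 bp away, had FLAG in all 3 K27M-Tag lists and in no WT-Tag list, so the sides of the 2 measures were opposite there. Chromosome 7 from 20281236 to 20285079 covered 1610, 1591 and 2144 bp against 3123, 3357 and 3844 bp, and chromosome 17 from 33915297 to 33919133 covered 1738, 1538 and 2135 bp against 3832, 3199 and 3406 bp. Both had a log2 ratio of -0.96 (limma adjusted p = 0.013 and 0.012) and flanking regions in all 6 FLAG lists. The chromosome 19 call was lost without K27M-Tag replicate 3 (-1.28, limma adjusted p = 0.056). The other 2 were lost without K27M-Tag replicate 1, at -0.89 and -0.94 (limma adjusted p = 0.069 and 0.068).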

How the data were processed

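Peak lists of 12 libraries were used, 1 FLAG and 1 H3K4me3 list for each of 6 cultures, and 2 composite inputs were not analysed here. The submitters' processing notes name BWA 0.7.17-r1188, MACS2 2.2.7.1, bedtools 2.29.2 and the builds mm9 and dm6. The caller's threshold and control are not given in the sources used here, and a control may be common to the 3 cultures of a genotype. Lists are per library. The deposited score, the fold (a ratio to local background at the summit), and the −log10 p and −log10 q are the authors' values per peak. The lowest deposited −log10 q was 2.00 to 2.05 in each list. Drosophila chromatin was added for H3K4me3, per the labels' protocols, and no value is scaled by it.

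Autosomal peaks were merged at 1 bp overlap, and adjoining intervals are 1 bp apart. Summit pileup and background coverage were recovered from fold and p, and 100% of FLAG peaks matched within 0.0001. Breadth is log2 covered bases at regions in all 6 lists, fitted with limma 3.58.1 (R 4.3.3; trend, Benjamini-Hochberg adjustment over all regions, threshold 0.05). Regions kept only where all 6 lists have a peak leave out those lost in a genotype. Other comparisons used two-sided exact permutation tests over cultures. The limma step was also run on simulated log2 breadths with 200 regions planted as wider in K27M-Tag. It found 69 of 100 planted 4-fold and 13 of 100 planted 2-fold changes for FLAG (11907 regions, 6 false calls). For H3K4me3 it found 96 and 71 of 100 (21864 regions, 5 false calls). In the data 44.0% of FLAG and 8.06% of H3K4me3 regions were called, so these rates need not hold there. Named regions were the 6 with the highest lowest score percentile in K27M-Tag, the 4 with the highest over all 6 lists, the 4 with the most covered bases, the 5 largest gains and 3 largest losses of FLAG breadth, the 3 H3K4me3 regions with the most members, the 2 regions on each side of the limit, and the 3 largest gains and losses of H3K4me3 breadth at neighbours. Alternatives were the highest-scoring 50% of each list, equal list sizes (32466 FLAG or 30884 H3K4me3 peaks), joined peaks, limits of 2000 and 10000 bp, H3K4me3 of all 6 lists, centring, the replicate number as a block and leaving out each library. The members and lists were chosen with earlier results of these data known.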

Additional observations from a re-analysis of the deposited data

How the results depend on the processing

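The number of flanking regions, 6113, was 2197 with the highest-scoring 50% of each list, 2261 with equal list sizes, 2638 with joined peaks, 3722 with a limit of 2000 bp, 686 with summits of at least 8 times background, and 6102 to 10882 with 1 library left out. The share of them with no WT-Tag peak was 24.6%, 18.6%, 22.9%, 32.9% and 43.4% in the first 5 of these settings, 28.8% with a limit of 10000 bp, 25.3% with H3K4me3 of all 6 lists, and 29.6% to 43.1% with 1 library left out. Its difference between 0 to 500 bp and 4 to 5 kb, 15.2 points, was 1.80 with joined peaks, 6.95 with H3K4me3 of all 6 lists, 10.4 with summits of at least 8 times background, and 13.98 to 17.9 with 1 library left out. The flanking share of all FLAG peaks, -3.13 points, reversed to 4.56 among peaks outside H3K4me3, was -0.763 (exact permutation p = 0.7) with a limit of 2000 bp, -6.54 with 10000 bp, -6.39 with the highest-scoring 50%, -9.64 with equal list sizes and -5.05 with H3K4me3 of all 6 lists, and lay between -3.80 and -2.34 with 1 culture left out. The density ratio, 0.423, reversed to -0.0385 with the highest-scoring 50% and -0.0270 with equal list sizes, and was 0.350 to 0.529 with 1 culture left out. FLAG breadth calls at flanking regions, 525 (26.1%, against 44.0% of all regions), were 295 of 841 regions with the highest-scoring 50% (35.1%, against 45.8%). With joined peaks they were 311 of 1059 (29.4%, against 52.0%). With 1 library left out they ran from 217 of 2192 to 641 of 2675 (9.90% and 24.0%, against 21.4% and 40.6%). H3K4me3 breadth calls at neighbours, 248 (10.1%, against 8.06% of all H3K4me3 regions), were 114 with centring (4.63%, against 3.09%). They were 99 with the highest-scoring 50% (7.23%, against 4.52%) and 91 with equal list sizes (8.67%, against 6.51%). With 1 library left out they ran from 13 to 323 (0.508% and 12.8%, against 0.335% and 10.9%). Where fewer regions entered the test the count falls for that reason among others, and the cause was otherwise not tested. Same-numbered cultures did not deviate together (correlations of 0.0036, 0.010 and 0.013 for FLAG and 0.029, 0.034 and -0.0096 for H3K4me3), so the numbers were not taken to pair them. With the replicate block, FLAG calls were 453 at flanking regions (22.5%, against 39.2% of all regions) and H3K4me3 calls 69 at neighbours (2.80%, against 2.14%). A block cannot change a difference of means in this balanced design, so the flanking share and density ratio stand at -3.13 and 0.423 by construction, and their exact permutation p with the block is 0.25, the smallest that 3 pairs allow. For the named gains and losses, 120 values under alternatives kept direction and call, 11 kept direction only and none reversed. A setting in which a region was no longer in all lists gave no value and is not in these counts. With the highest-scoring 50% this held for every named FLAG gain and loss. List length and the caller's local background, which differ between genotypes, limit every count of lists, and no read depth beyond the recovered coverage is known.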

Other observations

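Flanking regions were counted in windows of 100 kb, after the values had been seen, to locate dense groups. The window on chromosome 8 from 10900001 to 11000000 held the most, 14, of which 6 had no WT-Tag peak. Its 4 regions in all 6 FLAG lists had a median log2 breadth ratio of 1.41, and none was negative. The window on chromosome 6 from 114500001 to 114600000 held 13, all with a peak in all 3 WT-Tag lists. Of these, 11 had a negative log2 ratio, with a median of -0.77 against 0.49 over all flanking regions tested, and the regions with the largest and second largest loss of FLAG breadth both lie in it. Windows on chromosome 11 from 87900001 to 88000000 and from 117100001 to 117200000 also held 13 each, of which 5 and 3 had no WT-Tag peak, and their medians were 1.14 over 6 and 0.86 over 4 regions. Neighbouring regions of a window are not independent, and no test was made.

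By chromosome, the share of flanking regions with no WT-Tag peak was lowest on chromosome 15, at 22.4% of 295, and highest on chromosome 13, at 45.1% of 195.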
